A study of Oryza sativa Japonica Group with 17 samples.

Results

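The calcium sensor genes of rice and the kinase genes that read calcium were described in roots of plants that lack a cytosolic glutamine synthetase. The members were the genes whose symbol or synonym places them among the calmodulins (CAM), calmodulin-like proteins (CML), calcineurin B-like proteins (CBL), CBL-interacting protein kinases (CIPK) or calcium-dependent protein kinases (CPK, also written CDPK). The rule found 92 such genes in the RefSeq annotation, and 77 of them had a probe set that names 1 gene, of 17905 genes with such a probe set. They comprised 3 CAM, 23 CML, 7 CBL, 24 CIPK and 20 CPK genes. The rule reads names and no measured value, and each gene was read from the probe set with its highest mean signal over the 17 samples. The other 15 genes (CBL1, CBL7, CIPK3, CIPK9, CIPK13, CIPK15, CIPK27, CIPK33, CML2, CML21, CML22, CPK11, CPK14, CPK25 and CPK28) were not analysed here.

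The samples were roots of Nipponbare rice grown in water culture to day 18 with 1 mM ammonium, 1 Affymetrix rice array for each of 17 samples. Wild type (n = 3) served as the control of the gs1;2 mutant (n = 3), which lacks OsGS1;2. Loss of OsGS1;1 was studied in 2 insertion lines. The homozygous gs1;1 plants of line NC2373 (n = 2) and of line ND8037 (n = 3), called homozygotes, each had a control, called null, of insertion-free plants segregated from the same line (n = 3 in each line). Values are log2 signals from RMA, a method that removes background, equalises the arrays and gives each probe set 1 value. A difference of 1 on this scale is a doubling. Samples are named by the number in their title.

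Calcium enters the cytosol of plant cells in transient pulses after many stimuli, and proteins with EF-hand motifs bind it. Calmodulins and calmodulin-like proteins have no enzyme activity of their own and act through the proteins they bind. CBL proteins dock on CIPK kinases and bring them to a membrane, while CPK proteins carry the calcium-binding domain and the kinase domain in 1 chain. In roots, CBL and CIPK pairs are known for the control of potassium and sodium transport, and in Arabidopsis also of ammonium and nitrate transporters.

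The targeted genes were low in the mutants as labelled. OsGS1;2 was lower in gs1;2 than in wild type by 5.43 on the log2 scale (adjusted p = 8.04e-12), and OsGS1;1 differed from its null by -3.37 in NC2373 (adjusted p = 1.29e-05) and by -2.24 in ND8037 (adjusted p = 2.71e-04). The 6 ND8037 arrays form a set of their own, with mean signals of 5.36 to 5.38 against 5.93 to 5.94 on the other 11 arrays. Their actin 3' minus 5' signal, a sign of RNA quality or labelling, was 3.98 to 4.33 against 2.22 to 2.64. Levels were therefore compared only within a set, and in any difference between the gs1;1 lines the line cannot be told apart from its array set. Of the root markers, 6 were on the array (Lsi1, Lsi2, OsCASP1, OsSHR1, IRT1 and OsSCR1), with summed linear signals of 6852 to 17940 in the 17 samples. The 5 leaf markers summed to 22130 to 28060 in NC2373 homozygotes against 7591 to 12080 in its null, and to 11930 to 21390 in ND8037 homozygotes against 6383 to 9096 in its null. In gs1;2 they summed to 1420 to 3357 against 2828 to 7432 in wild type. Of these 5, 3 were called higher in NC2373, 2 in ND8037 and 0 in gs1;2 by limma, where 2 were lower at an unadjusted p under 0.05. The root markers summed to 10450 to 12160 in gs1;2 against 13650 to 17940 in wild type, without overlap, with IRT1 called higher (1.27, adjusted p = 0.0065) and Lsi2 lower (-0.81, adjusted p = 0.0467). In NC2373 they summed to 9186 to 10200 in the homozygotes against 9730 to 13050 in the null, and in ND8037 to 6852 to 8979 against 10150 to 10570, with 0 of 6 called in either line by limma. At an unadjusted p under 0.05, 1 was higher and 1 lower in NC2373 and 2 were lower in ND8037. Lsi1, the brightest root marker, weighs most in the sums. The mean log2 signal of the 6 root markers overlapped between gs1;2 (8.33 to 8.56) and wild type (8.28 to 8.78). It also overlapped in NC2373, at 7.99 to 8.42 in the homozygotes against 8.195 to 8.37 in the null. In ND8037 it lay just lower, at 7.5396 to 7.7742 against 7.7748 to 7.8634 in the null. The part of the leaf and root markers in the results that follow was not tested.

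Loss of OsGS1;2 went with 5 lower members and no higher one, and loss of OsGS1;1 with changes in more members, most of them lower. In gs1;2, CML10, CML5, CPK4, CIPK12 and CPK1 fell against wild type. Of these, CML5 and CPK1 in gs1;2 also lay below all NC2373 null samples, and CML10, CPK4 and CIPK12 overlapped them. In NC2373, 11 members fell and 2 rose, led by the rise of the kinase CPK21 and the fall of CIPK5, CIPK18 and CIPK31. With wild type as control, CPK21 was still called by limma (0.93, adjusted p = 0.0375). CIPK5 (0.11, adjusted p = 0.8758), CIPK18 (-0.60, adjusted p = 0.1730) and CIPK31 (-0.02, adjusted p = 0.9765) were not. In ND8037, 12 members fell and 3 rose, and 6 of the 7 CBL genes were among those that fell (2 of 7 without ND8037 homozygote 123). A call is an adjusted p under 0.05 from limma, over 57258 probe sets. In gs1;2, 6.49% of members were called against 4.03% of all probe sets (1.67% higher and 2.37% lower) and 6.86% of all genes. In NC2373 the share was 16.9% of members, against 7.65% of probe sets (4.07% higher and 3.58% lower) and 14.1% of genes. In ND8037 it was 19.5% of members, against 9.08% of probe sets (4.4% higher and 4.68% lower) and 15.9% of genes. The members' share of calls was thus near that of all genes in each mutant. The directions were uneven among the members, while over all genes 1250 fell and 1277 rose in NC2373, and 1294 fell and 1555 rose in ND8037. In gs1;2, 819 genes fell and 409 rose. No member was called higher in gs1;2 by limma, and 9 were higher at an unadjusted p under 0.05. At that threshold 24 members were lower there, against 3354 lower and 1616 higher of 17905 genes. In NC2373 it was met by 6 members higher and 20 lower, against 2831 and 3309 genes. For ND8037 it was 10 higher and 13 lower, against 3341 and 3008 genes. Median differences of the members were -0.12 in gs1;2, -0.08 in NC2373 and -0.10 in ND8037, against -0.05, -0.03 and 0.00 over all genes. In these whole roots, fewer cells of a type and less RNA per cell cannot be told apart.

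**Figure D1:**
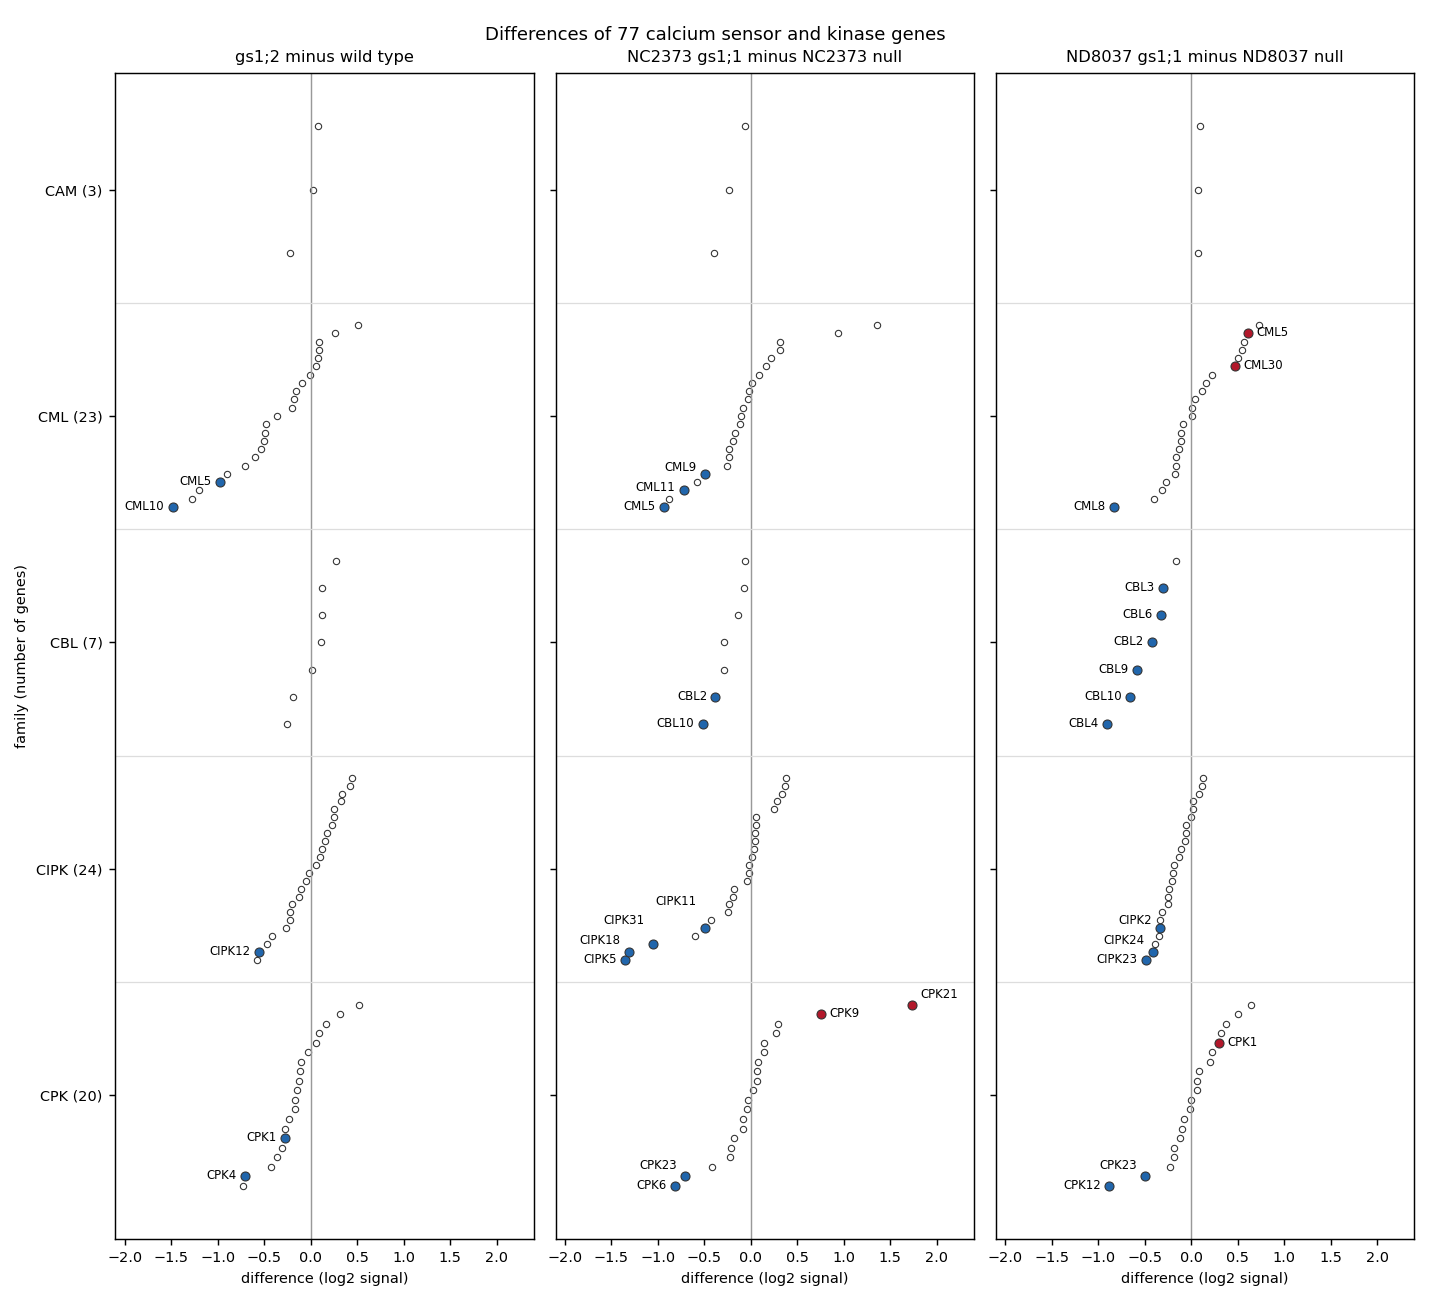
Difference in log2 signal (x axis) of each of the 77 members, ordered by size within its family (y axis), in gs1;2, NC2373 homozygotes and ND8037 homozygotes, each against its own control. Filled points are members called by limma at an adjusted p under 0.05 (blue lower, red higher) and open points were not called; 6 of 7 CBL genes are filled in ND8037.

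Over the members, 27 were called in at least 1 of the 3 mutants and 50 in none. That is 35.1% of members, against 30% of all genes and 17.3% of all probe sets. The groups of 10 of 77 members did not overlap with gs1;2 above wild type and those of 20 of 77 with gs1;2 below it, against 13.2% and 11.7% of all probe sets. In NC2373 the counts were 7 of 77 above and 24 of 77 below, against 15.9% and 20% of probe sets. In ND8037 they were 11 of 77 above and 18 of 77 below, against 11.9% and 16.5%. When each array was left out in turn, few calls held throughout: 1 of 5 in gs1;2 (CML5), 2 of 13 in NC2373 (CML5 and CPK21) and 4 of 15 in ND8037 (CBL10, CBL9, CIPK24 and CML5). Called members CBL9, CIPK2, CIPK11, CIPK31, CML5, CML8, CPK12 and CPK23 were read from probe sets marked by ID as able to match several transcripts. They have no value in the fit without such probe sets, which took no other probe set in their place. CML5 and CIPK2 have further probe sets without that mark. In ND8037 these were not called by limma, at -0.25 (adjusted p = 0.1211) for CML5 and -0.05 and -0.12 for CIPK2. That of CML5 was called lower in gs1;2 and NC2373.

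The calmodulins, the sensors shared by many target proteins, showed no call. CAM3, the calmodulin gene with the highest mean signal, read 12.50, 12.58 and 12.60 in wild type and 12.66, 12.62 and 12.64 in gs1;2. Its NC2373 null samples read 12.78, 12.67 and 12.60 against 12.64 and 12.59 in NC2373 homozygotes, and ND8037 null 12.19, 11.96 and 12.17 against 12.08, 12.22 and 12.24 in ND8037 homozygotes. The gs1;2 values lay just above those of wild type, and the groups of both gs1;1 lines overlapped. The CAM3 difference was 0.08 (95% interval -0.09 to 0.25) in gs1;2, -0.07 (95% interval -0.26 to 0.12) in NC2373 and 0.08 (95% interval -0.09 to 0.25) in ND8037. For CAM1 and CAM2 it was 0.03 and -0.22 in gs1;2, -0.23 and -0.39 in NC2373, and 0.07 and 0.09 in ND8037. By limma 0 of 3 calmodulins were called in each mutant, and CAM1 and CAM2 were lower in NC2373 at an unadjusted p under 0.05.

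Among the calmodulin-like genes, which encode EF-hand sensors related to calmodulin, CML5 was the 1 member called in all 3 mutants. CML5 (locus LOC4352729) read 7.26, 7.53 and 7.40 in wild type and 6.67, 6.45 and 6.16 in the mutant, with every mutant sample below every control. It fell there by 0.97 on the log2 scale (SE 0.137, adjusted p = 0.0015). In NC2373 the null samples read 7.50, 7.95 and 7.75 and the homozygotes 6.64 and 6.94, again without overlap, and the difference was -0.94 (SE 0.153, adjusted p = 0.0029). In ND8037 the order turned. The null samples read 5.64, 5.80 and 5.80 and the homozygotes 6.31, 6.49 and 6.29, all mutants above all controls, for a rise of 0.61 (SE 0.137, adjusted p = 0.0137). These 3 calls held without any single array.

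A second probe set of CML5 fell in gs1;2 by 0.64 on the log2 scale (adjusted p = 0.0025) and differed by -0.48 in NC2373 (adjusted p = 0.0142). In ND8037 it read 6.40, 6.68 and 6.68 in the null and 6.23, 6.38 and 6.40 in the homozygotes. The homozygotes lay lower apart from a narrow overlap, and the difference was -0.25 (adjusted p = 0.1211). The probe sets thus gave one direction in gs1;2 and NC2373 and opposite signs in ND8037. The ID of the brighter probe set marks it as one that can match several transcripts. With the mean of both probe sets, CML5 in ND8037 was 0.18 (adjusted p = 0.3292).

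**Figure D2:**
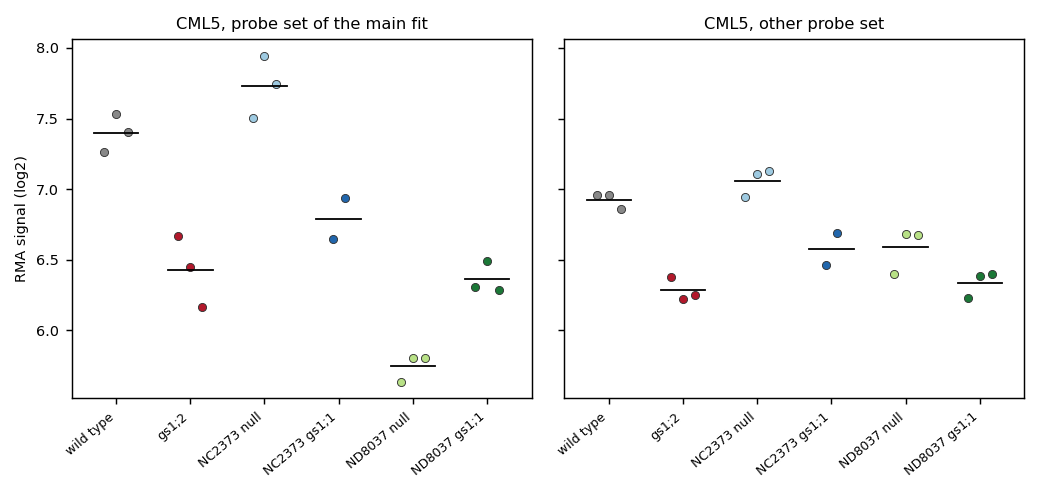
RMA signal (log2, y axis) of CML5 in each sample of the 6 groups, for the brighter probe set (left) and the other probe set (right); bars are group means. In the left panel the ND8037 homozygotes lie above their null, and in the right panel they do not, while gs1;2 and NC2373 homozygotes lie below their controls in both.

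In gs1;2, 2 of 23 CML genes fell and none rose, 8.7% of the family against 6.86% of all genes called. The family's median difference was -0.36, against -0.05 over all genes. CML10 read 11.43, 10.98 and 10.38 in wild type and 9.38, 9.76 and 9.21 in the mutant, all mutants below all controls. Its fall of 1.48 on the log2 scale (SE 0.299, adjusted p = 0.0135) was the largest of any member in this comparison. The call was lost without wild type 627 (-1.23, adjusted p = 0.0602), wild type 628 (-1.46, adjusted p = 0.0534) or gs1;2 356 (-1.36, adjusted p = 0.0780), and in a fit on the compared groups alone (adjusted p = 0.0573). Its second probe set, with a mean of 2.82, differed by 0.01 (adjusted p = 0.9686). For CML10 the insertion-free NC2373 null read 9.27, 9.81 and 10.73, which overlaps gs1;2. Before adjustment, 12 of 23 CML genes were lower and 2 higher at a p under 0.05 by limma. Over all 17905 genes, 3354 were lower and 1616 higher at that threshold. CML4, the family member with the highest mean signal, read 12.19, 11.95 and 12.10 in wild type and 12.26, 12.37 and 12.39 in the mutant, all mutants higher, with a difference of 0.26 (adjusted p = 0.1756).

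The CML family was also the most uneven within wild type. Its median SD among the wild type samples was 0.278, against 0.131 for CBL, 0.141 for CIPK and 0.163 for CPK, and in gs1;2 it was 0.155. An SD over 0.5 was seen in 6 of 23 CML genes in wild type and in 0 in gs1;2. The widest was CML15, at 10.50, 9.65 and 8.37 in wild type 627, 628 and 629. Without wild type 629, 16 members were called in gs1;2, and 10 of them were lower CML genes. CML10 then differed by -1.75, CML15 by -1.85 and CML16 by -1.68, CML15 and CML16 being named after their values were seen. Without wild type 627, wild type 628, gs1;2 355 or gs1;2 356 the count of called members was 1, 2, 3 and 1. It was 3 without ND8037 homozygote 125 and 3 without ND8037 null 158, arrays that enter only through the shared estimate of spread.

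In NC2373, 3 CML genes fell and none rose, 13% of the family against 14.1% of all genes called in either direction. Besides CML5, CML11 read 7.82, 7.52 and 7.99 in the null and 7.04 and 7.08 in the homozygotes, both mutants below all controls. Its difference was -0.72 (SE 0.141, adjusted p = 0.0070), and the call was lost without NC2373 homozygote 117 (-0.70, adjusted p = 0.0590) and in a fit on the compared groups alone (adjusted p = 0.0571). Against wild type CML11 differed by -0.26 (adjusted p = 0.3315). CML9 differed by -0.49 (adjusted p = 0.0209), a call lost without NC2373 null 152, homozygote 117 or homozygote 118 (adjusted p = 0.0771, 0.1634 and 0.0596) or with the compared groups alone (adjusted p = 0.0572). CML4 read 11.83, 11.98 and 12.03 in the null and 11.66 and 11.85 in the homozygotes, which overlap, a difference of -0.19 (adjusted p = 0.3925). At an unadjusted p under 0.05, 2 CML genes were higher in this line.

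In ND8037, CML8 fell, and CML30 and CML5 rose, 13% of the family against 15.9% of all genes called. CML8 read 10.20, 10.22 and 10.30 in the null and 9.19, 9.54 and 9.51 in the homozygotes, with all mutants well below the tightly grouped controls. The difference was -0.83 (SE 0.188, adjusted p = 0.0149), and the call was lost without ND8037 homozygote 123 (-0.72, adjusted p = 0.0708) or null 158 (-0.80, adjusted p = 0.0521). CML30 read 8.63, 8.77 and 8.69 in the null and 9.26, 9.23 and 9.01 in the homozygotes, all mutants above all controls. It rose by 0.47 (SE 0.136, adjusted p = 0.0420). That call was lost in 10 of the refits that leave out 1 array, namely without NC2373 null 153, NC2373 homozygote 117 or 118, gs1;2 354 or 355, ND8037 homozygote 123 or 124, or any of the ND8037 null samples (adjusted p = 0.0502 to 0.1414). It was also lost after quantile normalization over all arrays (0.44, adjusted p = 0.0511). CML4 read 11.92, 11.58 and 11.81 in the null and 11.52, 11.70 and 11.75 in the homozygotes, which overlap, a difference of -0.11 (adjusted p = 0.5626).

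The CBL family, whose proteins pass the calcium signal to CIPK kinases, was called lower in 6 of 7 genes and higher in none in ND8037. That is 85.7% of the family, against 4.68% of all probe sets and 1294 of 17905 genes called lower. Without ND8037 homozygote 123, 2 of 7 were called, CBL9 and CBL10. Without 1 of the other ND8037 arrays 4 or 5 of 7 were called, and all 7 differences stayed below 0 in each of these refits. The median difference was -0.42, and the lowest was that of CBL4, the rice counterpart of the Arabidopsis sensor SOS3 of the salt pathway. CBL5, the member not called, differed by -0.17 (95% interval -0.46 to 0.13). It read 6.74, 6.86 and 6.41 in the null and 6.26, 6.65 and 6.59 in the homozygotes, which overlap.

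CBL4 read 7.05, 7.07 and 7.21 in the ND8037 null and 5.90, 6.44 and 6.28 in the homozygotes, the latter all lower and ND8037 homozygote 123 the lowest. The difference was -0.91 (SE 0.2, adjusted p = 0.0131), and the call was lost without that array (-0.75, adjusted p = 0.0654). CBL10, which in Arabidopsis also recruits the SOS2 kinase, read 8.99, 8.84 and 9.03 and 8.11, 8.39 and 8.40, without overlap. Its difference of -0.65 (SE 0.12, adjusted p = 0.0059) held without any single array. CBL9 read 7.91, 7.98 and 7.98 and 7.24, 7.51 and 7.36. The null samples of CBL9 lay close together and above all homozygotes, and the difference was -0.59 (SE 0.118, adjusted p = 0.0091). That call held without any single array, and a second probe set of CBL9 fell as well (-0.48, adjusted p = 0.0391). The IDs of both CBL9 probe sets mark them as open to cross-hybridisation.

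CBL2 and CBL3 are the sensors that sit on the vacuolar membrane in Arabidopsis. CBL2 read 9.09, 9.21 and 9.25 in the ND8037 null and 8.62, 8.82 and 8.85 in the homozygotes, without overlap, and differed by -0.42 (SE 0.0877, adjusted p = 0.0103). The call was just lost without ND8037 homozygote 123 (-0.35, adjusted p = 0.0502). CBL3, the CBL gene with the highest mean signal, read 10.88, 10.90 and 10.97 and 10.57, 10.63 and 10.65, also without overlap. It differed by -0.30 (SE 0.083, adjusted p = 0.0356), and the call was lost without any 1 of the 6 ND8037 arrays (adjusted p = 0.0556 to 0.1189) or with the compared groups alone (adjusted p = 0.0747). CBL6 differed by -0.32 (adjusted p = 0.0425). That call was lost in 11 refits, without NC2373 null 153 or 154, wild type 627 or 629, any gs1;2 sample, ND8037 homozygote 123 or any ND8037 null sample (adjusted p = 0.0506 to 0.1685). It was lost too with the compared groups alone (adjusted p = 0.1585) and with array weights (-0.27, adjusted p = 0.0682). The summed leaf marker signal was higher, and that of the root markers lower, at 6852 to 8979 against 10150 to 10570, in the same ND8037 homozygotes. Lsi1 weighs most in the root sum. By limma 0 of 6 root markers were called, with 4 differences below 0 and 2 above. Their mean log2 signal was 7.5396 to 7.7742 against 7.7748 to 7.8634 in the null. The part of these markers in the CBL differences was not tested.

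In NC2373 all 7 CBL differences were below 0, from -0.07 to -0.52 with a median of -0.29, and 2 were called. The calls are 28.6% of the family, against 14.1% of all genes called, and 9631 of 17905 genes had a difference below 0. CBL10 read 9.27, 9.51 and 9.53 in the null and 8.67 and 9.16 in the homozygotes, the mutants lower but far apart. The difference was -0.52 (SE 0.134, adjusted p = 0.0284), and the call was lost without NC2373 null 153 (-0.49, adjusted p = 0.0736), null 154 (-0.47, adjusted p = 0.0766) or homozygote 117 (-0.28, adjusted p = 0.3197). It was lost too with the compared groups alone (adjusted p = 0.1679), and against wild type CBL10 differed by -0.26 (adjusted p = 0.3014). CBL2 differed by -0.38 (adjusted p = 0.0286), a call lost without any 1 of the 5 NC2373 arrays (adjusted p = 0.0553 to 0.2239) or with the compared groups alone (adjusted p = 0.1065). CBL3 read 11.24, 11.37 and 11.36 in the null and 11.01 and 11.36 in the homozygotes, which overlap. In gs1;2 the CBL differences lay between -0.25 and 0.27, and limma called 0 of 7, with 1 up and 1 down at a raw p under 0.05. CBL3 read 11.24, 11.17 and 11.26 in wild type and 11.36, 11.34 and 11.33 in the mutant, a difference of 0.12 (adjusted p = 0.4745).

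**Figure D3:**
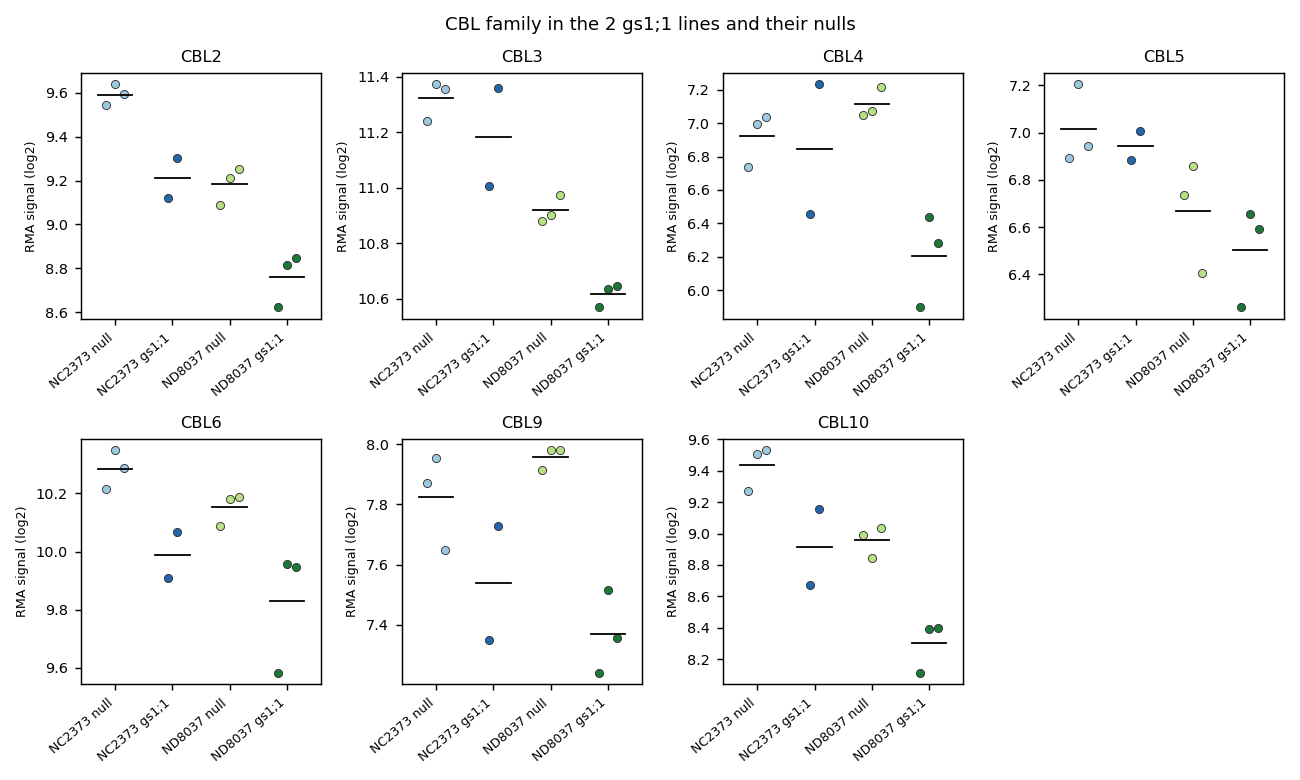
RMA signal (log2, y axis) of the CBL genes in each sample by group (x axis), with bars at group means. The ND8037 homozygotes lie below their null without overlap in 6 of the 7 genes, and levels of the ND8037 samples are not comparable with those of the other groups.

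The CIPK kinases, which CBL proteins activate, held the largest falls in NC2373. There 4 of 24 fell and none rose, 16.7% of the family against 14.1% of all genes called in either direction. CIPK5 (locus LOC4327093) read 5.53, 5.12 and 5.17 in the null and 4.09 and 3.75 in the homozygotes, the mutants more than 1 unit lower, for a difference of -1.36 (SE 0.243, adjusted p = 0.0048). CIPK18 read 8.95, 8.50 and 8.75 and 7.56 and 7.29, also far apart, and differed by -1.31 (SE 0.247, adjusted p = 0.0061). Both calls were lost without NC2373 homozygote 118, at -1.18 (adjusted p = 0.0569) for CIPK5 and -1.17 (adjusted p = 0.0645) for CIPK18. CIPK31, first described in rice as OsCK1, read 7.66, 7.57 and 7.65 and 6.39 and 6.76. Its null samples were close together and above both mutants, with a difference of -1.05 (SE 0.196, adjusted p = 0.0056). The CIPK31 call was lost without NC2373 homozygote 117 (-0.87, adjusted p = 0.0735), and its other probe set differed by -0.49 (adjusted p = 0.2129). CIPK11 differed by -0.49 (adjusted p = 0.0226), a call lost without NC2373 null 152, homozygote 117 or homozygote 118 (adjusted p = 0.0897, 0.1420 and 0.0856) or with the compared groups alone (adjusted p = 0.0634). Against wild type CIPK11 differed by -0.33 (adjusted p = 0.1251). By limma 0 CIPK genes were called higher, with 2 higher at an unadjusted p under 0.05.

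For CIPK5 and CIPK31 the NC2373 null itself stood above wild type. Wild type read 3.81, 3.95 and 3.67 for CIPK5, close to the NC2373 homozygotes and below all null samples, and the null was higher than wild type by 1.47 (SE 0.217, adjusted p = 0.0072). For CIPK31 wild type read 6.74, 6.83 and 6.21, and the null was higher by 1.03 (SE 0.175, adjusted p = 0.0134). The CIPK31 call was lost without NC2373 null 152 (1.02, adjusted p = 0.0554) and in a fit on the compared groups alone (adjusted p = 0.1323). CIPK18 in wild type read 7.70, 8.38 and 7.99, below all null samples, and this difference was not called. These comparisons share the NC2373 null samples with the mutant effect. Against wild type, NC2373 homozygotes differed by 0.11 for CIPK5 (adjusted p = 0.8758), -0.02 for CIPK31 (adjusted p = 0.9765) and -0.60 for CIPK18 (adjusted p = 0.1730). The falls of CIPK5 and CIPK31 were therefore seen against the segregated control and not against wild type. With wild type as control, 13 members were called, 5 higher and 8 lower, and 6 of them were among the 13 called against the null. By limma these 6 were CPK21 (0.93, adjusted p = 0.0375), CPK9 (1.09, adjusted p = 0.0039) and CPK23 (-0.84, adjusted p = 0.0029). The others were CBL2 (-0.49, adjusted p = 0.0067), CML9 (-0.51, adjusted p = 0.0168) and CML5 (-0.61, adjusted p = 0.0244). The sign of the difference turned in 18 of the 77 members, 7 of them CML, 6 CIPK, 4 CPK and 1 CAM genes. CIPK5 was the 1 of these called against the null. CML16 and CML15, named after their values were seen, moved from 1.36 to -0.09 and from 0.21 to -1.53, and neither was called against either control.

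**Figure D4:**
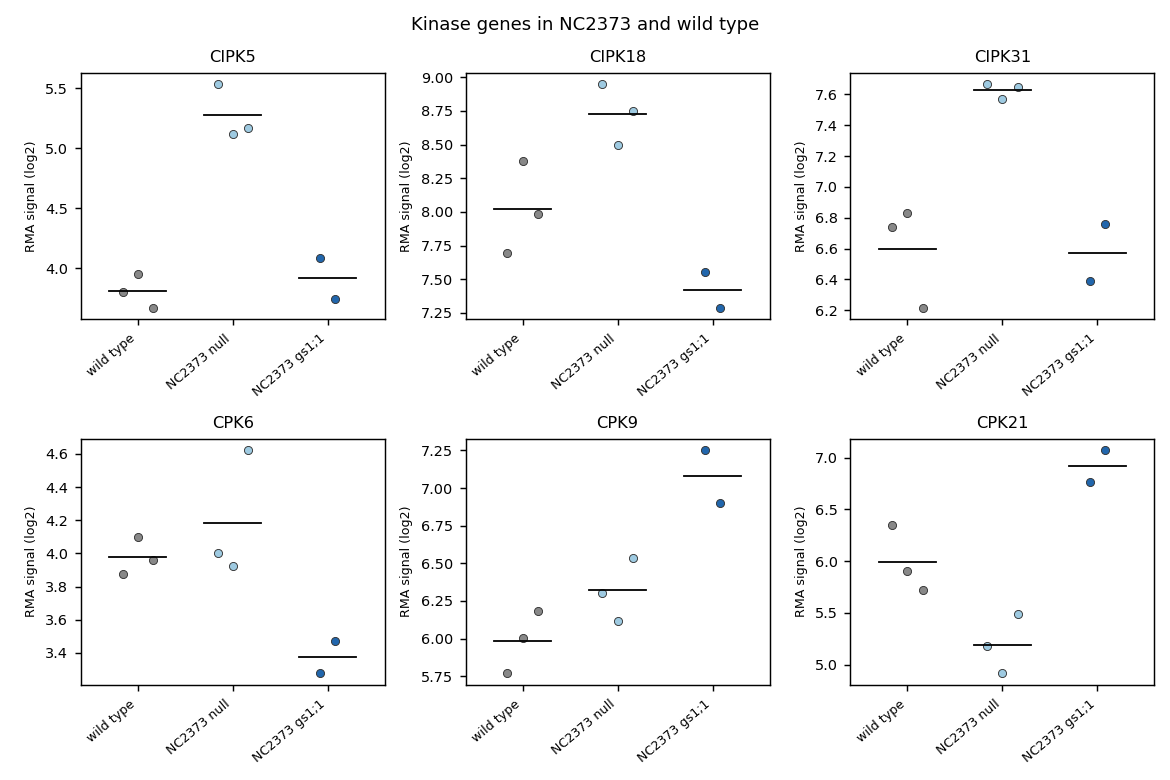
RMA signal (log2, y axis, a separate range in each panel) of 6 kinase genes in the wild type, NC2373 null and NC2373 homozygotes, with bars at group means. For CIPK5 and CIPK31 the homozygotes lie near wild type and below the null, and for CPK21 and CPK9 they lie above both.

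Between the NC2373 null and wild type, 3 members were called, all higher, 3.9% of members against 0.913% of all probe sets (0.428% higher and 0.486% lower) and 1.54% of all genes. The null samples lay above wild type without overlap in 10 of 77 members and below it in 7 of 77, against 7.17% and 8.26% of probe sets. Beside CIPK5 and CIPK31 the call was CML1, at 7.37, 7.39 and 7.65 in wild type and 8.15, 8.25 and 8.49 in the null, all null samples higher. It differed by 0.83 (SE 0.177, adjusted p = 0.0426), a call lost in 13 refits, all but those without wild type 629, gs1;2 354, gs1;2 356 and ND8037 homozygote 123 (adjusted p = 0.0510 to 0.1871). It was lost too with the compared groups alone (adjusted p = 0.1244). The direction of the calls depended on single arrays. Without NC2373 null 154, 2 members were called higher and 3 lower, and without wild type 629, 3 higher and 6 lower. Without null 152 there was 1 call, higher.

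In ND8037, 3 of 24 CIPK genes fell and none rose, and 19 of the 24 differences were below 0. The calls are 12.5% of the family, below the 15.9% of all genes called in either direction, of which 1294 of 17905 fell. Over all genes 8939 of 17905 differences were below 0. CIPK23, the rice kinase that activates the potassium channel AKT1, read 11.96, 12.09 and 11.82 in the null and 11.34, 11.62 and 11.43 in the homozygotes, without overlap. It differed by -0.49 (SE 0.111, adjusted p = 0.0144), and the call was lost without ND8037 homozygote 123 (-0.43, adjusted p = 0.0673) or null 157 (-0.43, adjusted p = 0.0628). A dimmer probe set of CIPK23 differed by -0.13 (adjusted p = 0.3001). CIPK24, the rice SOS2 kinase that works with CBL4 in sodium export, differed by -0.41 (adjusted p = 0.0111) and kept its call without any single array. CIPK2 differed by -0.34 (adjusted p = 0.0427). Its call was lost in 9 refits, without either NC2373 homozygote, gs1;2 354 or 355, ND8037 homozygote 123 or 125, or any ND8037 null sample (adjusted p = 0.0508 to 0.1754). It was lost too with the compared groups alone (adjusted p = 0.1148), with array weights (-0.28, adjusted p = 0.0819) and with the mean of its probe sets (-0.17, adjusted p = 0.2171). The other probe sets of CIPK2 differed by -0.12 and -0.05, neither called. By limma 0 CIPK genes were called higher in ND8037, and 0 were higher at an unadjusted p under 0.05.

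In gs1;2, 1 CIPK gene fell, 4.17% of the family against 6.86% of all genes called. CIPK12, linked to drought tolerance in rice, read 6.20, 5.97 and 6.22 in wild type and 5.52, 5.62 and 5.59 in the mutant, all mutants lower and close together. The difference was -0.56 (SE 0.118, adjusted p = 0.0178), a call lost without wild type 627 (-0.52, adjusted p = 0.0653) or gs1;2 356 (-0.56, adjusted p = 0.0723). Its dimmer probe set differed by -0.29 (adjusted p = 0.3583). The insertion-free NC2373 null read 5.66, 5.59 and 5.58 for CIPK12, which overlaps gs1;2. The fall was thus seen against wild type, and gs1;2 was not tested against that null.

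CIPK14, the CIPK gene with the highest mean signal, encodes a kinase nearly identical to CIPK15 and linked to defence in rice, so its probe set may read both genes. It read 13.04, 12.80 and 13.00 in wild type and 12.58, 12.29 and 12.55 in the mutant, the mutants all lower, with a difference of -0.47 (adjusted p = 0.0522) that just missed the threshold. In NC2373 it read 12.93, 13.14 and 13.15 in the null and 12.58 and 13.09 in the homozygotes, a difference of -0.23 (adjusted p = 0.3992). In ND8037 it read 12.64, 12.56 and 12.72 and 12.23, 12.47 and 12.51, a difference of -0.24 (adjusted p = 0.2783). The mutant samples overlapped their null in NC2373 and lay lower in ND8037.

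The CPK kinases changed in both directions. In NC2373, CPK21 and CPK9 rose while CPK6 and CPK23 fell, 4 of 20 genes or 20% of the family, against 14.1% of all genes called. CPK21 (locus LOC4346187), linked to salt tolerance and abscisic acid signalling in rice, read 5.18, 4.91 and 5.48 in the null and 6.76 and 7.08 in the homozygotes. Both mutants were far above all controls, and the rise of 1.73 (SE 0.256, adjusted p = 0.0019) was the largest change of any member in NC2373. The call held without any single array, and NC2373 homozygotes also lay above wild type, by 0.93 (adjusted p = 0.0375). Wild type read 6.35, 5.90 and 5.72, above all null samples, though the null was not called against it. The rise of CPK21 was thus smaller against wild type than against the null. CPK9, linked to drought tolerance in rice, read 6.30, 6.12 and 6.54 and 7.26 and 6.90, the mutants higher. Its rise was 0.76 (SE 0.2, adjusted p = 0.0318), and the call was lost without NC2373 null 152 (0.75, adjusted p = 0.0862), null 153 (0.66, adjusted p = 0.0931), homozygote 117 (0.58, adjusted p = 0.2379) or homozygote 118 (0.94, adjusted p = 0.0613). It was lost too with the compared groups alone (adjusted p = 0.0637).

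Of the CPK genes that fell in NC2373, CPK6 had a low signal, 4.00, 3.93 and 4.63 in the null and 3.28 and 3.47 in the homozygotes, with null 154 standing above the rest. Its difference was -0.81 (SE 0.178, adjusted p = 0.0130), the call was lost without NC2373 homozygote 117 (-0.72, adjusted p = 0.1125) or 118 (-0.91, adjusted p = 0.0510), and its other probe set differed by 0.09 (adjusted p = 0.7374). The CPK6 call was lost too with the compared groups alone (adjusted p = 0.1114) and with the mean of its probe sets (-0.36, adjusted p = 0.0583), and against wild type the difference was -0.60 (adjusted p = 0.0516). CPK23, known as SPK, a kinase of sucrose synthase in developing rice seed, read 10.24, 10.31 and 10.19 and 9.52 and 9.56, with both groups tight and apart. The difference was -0.70 (SE 0.147, adjusted p = 0.0101), and the call was lost without NC2373 homozygote 117 (-0.69, adjusted p = 0.0731) or 118 (-0.72, adjusted p = 0.0611). The table holds no detection calls, so whether a low signal such as that of CPK6 or CIPK5 exceeds background was not tested.

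In ND8037, CPK12 and CPK23 fell and CPK1 rose, 15% of the family against 15.9% of all genes called. CPK12, linked to salt tolerance in rice, read 5.32, 5.30 and 4.96 in the null and 4.14, 4.33 and 4.47 in the homozygotes, all mutants lower. The difference was -0.88 (SE 0.233, adjusted p = 0.0301), a call lost without any 1 of the ND8037 homozygotes or without null 156 or 157 (adjusted p = 0.0502 to 0.1118) or with array weights (-0.81, adjusted p = 0.0536). CPK23 read 9.92, 9.59 and 9.70 and 9.10, 9.24 and 9.39, again lower in all mutants, and differed by -0.49 (SE 0.131, adjusted p = 0.0306). That call was lost without ND8037 homozygote 123 or 124 or null 156 or 158 (adjusted p = 0.0668 to 0.1227) or with the compared groups alone (adjusted p = 0.0531). CPK1 differed by 0.29 (adjusted p = 0.0182), lost without homozygote 125, null 156 or null 158 (adjusted p = 0.0624, 0.0529 and 0.0522) or with the compared groups alone (adjusted p = 0.0812). CPK21 and CPK9, which rose in NC2373, differed in ND8037 by 0.64 (adjusted p = 0.0951) and 0.50 (adjusted p = 0.0921).

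In gs1;2, CPK4 and CPK1 fell and none of the 20 CPK genes rose, 10% of the family against 6.86% of all genes called. CPK4, linked to salt and drought tolerance in rice, read 10.31, 10.26 and 9.81 in wild type and 9.35, 9.49 and 9.42 in the mutant, the mutants all lower. The difference was -0.71 (SE 0.187, adjusted p = 0.0480), a call lost in 11 refits, without wild type 627 or 628, any gs1;2 sample or any ND8037 array (adjusted p = 0.0547 to 0.1677). It was lost too with the compared groups alone (adjusted p = 0.0702) and after quantile normalization (-0.68, adjusted p = 0.0563). CPK1 read 10.74, 10.87 and 10.69 and 10.52, 10.46 and 10.48, a small shift between tight groups, and differed by -0.28 (SE 0.0696, adjusted p = 0.0395). Its call was lost in 8 refits, without NC2373 null 154, wild type 627 or 628, any gs1;2 sample, ND8037 homozygote 125 or ND8037 null 158 (adjusted p = 0.0501 to 0.1683). The same held with the compared groups alone (adjusted p = 0.1417) and after quantile normalization (-0.26, adjusted p = 0.0533). The NC2373 null read 9.44, 9.38 and 10.21 for CPK4, which overlaps gs1;2. For CPK1 it read 10.82, 10.69 and 10.70, all above gs1;2. CPK21 and CPK9 differed in gs1;2 by -0.72 (adjusted p = 0.0913) and 0.52 (adjusted p = 0.1197). By limma 0 CPK genes were called higher, with 2 higher at an unadjusted p under 0.05.

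CPK13, a cold-response kinase in rice and the CPK gene with the highest mean signal, was not called in any mutant. It read 12.04, 11.89 and 11.99 in wild type and 11.77, 11.85 and 11.80 in the mutant, a difference of -0.17 (95% interval -0.41 to 0.07). In NC2373 it read 11.68, 11.60 and 12.02 in the null and 11.52 and 11.93 in the homozygotes, a difference of -0.04 (95% interval -0.31 to 0.23). In ND8037 it read 11.32, 11.45 and 11.28 and 11.29, 11.18 and 11.22, a difference of -0.12 (95% interval -0.36 to 0.12). The CPK13 values of gs1;2 lay below wild type without overlap, and the homozygotes of both lines overlapped their null.

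Both gs1;1 lines called 4 members, CBL2, CBL10, CPK23 and CML5, and the first 3 of these fell in both. These 4 are 5.19% of members, against 4.23% of all genes and 2.11% of all probe sets called in both lines. The 3 with 1 direction are 3.9% of members, against 4.21% of genes and 2.1% of probe sets. The sign of the difference was shared by 46 of 77 members (59.7%), against 60.6% of all genes, and opposed in 31. The members were thus near the share of all genes on each count. All 7 CBL genes had the same sign in both lines, as did 14 of 24 CIPK, 15 of 23 CML, 10 of 20 CPK and 0 of 3 CAM genes. The test of the line difference itself, ND8037 effect minus NC2373 effect, called 1 member, CML5, at 1.55 (SE 0.205, adjusted p = 0.0409), where 0.00873% of all probe sets were called, 0.00349% as higher and 0.00524% as lower. That call was lost in 11 refits, without NC2373 null 153 or 154, either NC2373 homozygote, wild type 627, gs1;2 355, ND8037 homozygote 124 or 125, or any ND8037 null sample (adjusted p = 0.0550 to 0.1246). The other CML5 probe set gave 0.23 (adjusted p = 0.4518), and the mean of both 0.89 (adjusted p = 0.1005). The CBL differences between lines were -0.03 to -0.83 and none passed by limma, with CBL4 the 1 at an unadjusted p under 0.05 (-0.83 (adjusted p = 0.2047)). For CPK21 the line difference was -1.09 (adjusted p = 0.1596).

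**Figure D5:**
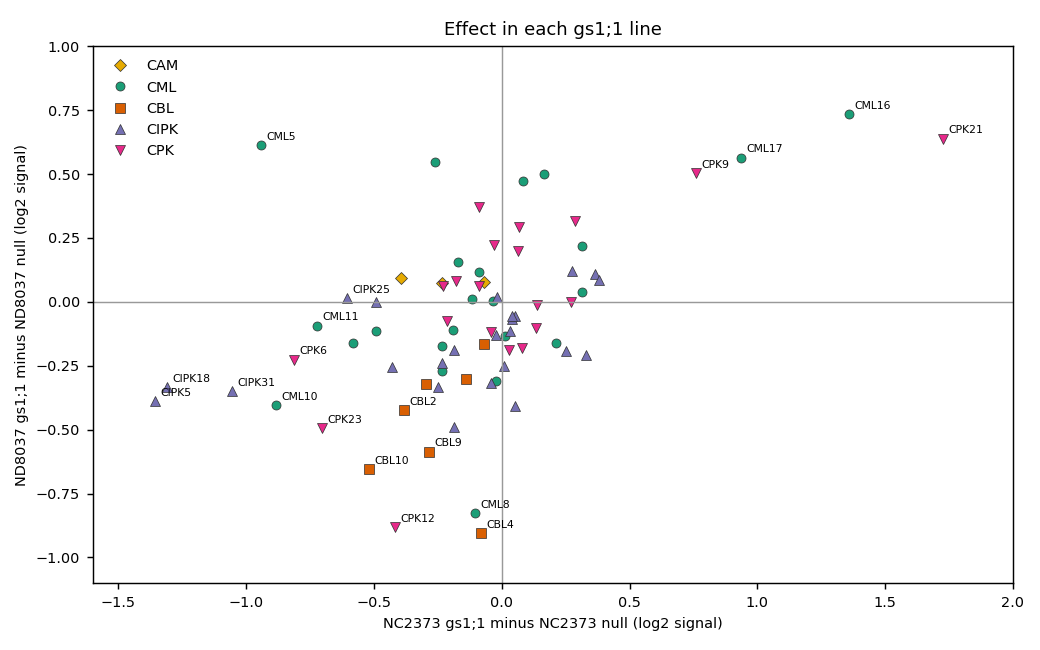
Difference in log2 signal of each of the 77 members in NC2373 (x axis) and in ND8037 (y axis), each gs1;1 minus its own null, with a marker for each family and names on the members far from 0 and on CBL2 and CBL9. The CBL squares all lie below 0 in both lines, and CML5 lies alone at the upper left.

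Between gs1;2 and the gs1;1 lines, CML5 was called with gs1;2 and NC2373, lower in both. CML5 and CPK1 were called with gs1;2 and ND8037, each lower in gs1;2 and higher in ND8037. The other CML5 probe set differed by -0.25 in ND8037 (adjusted p = 0.1211 by limma). Both CPK1 calls were lost with the compared groups alone (adjusted p = 0.1417 in gs1;2 and 0.0812 in ND8037 by limma). Some members are neighbours on a chromosome, with no annotated protein-coding gene between them. CIPK12 lies next to CIPK30, CIPK2 next to CIPK29, CML9 next to CAM2, and CIPK32 next to CML3. The probe sets of CIPK32 and CML3 carry the same cluster number, so those 2 genes could not be told apart with certainty, and neither was called in a mutant.

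Of the other genes of the pathway, 11 calcium channels and pumps had a probe set, and none was called in gs1;2 or NC2373 by limma, where 3 were lower at an unadjusted p under 0.05 in each and none higher. In ND8037, 3 of the 11 were called, or 27.3%, against 15.9% of all genes and 9.08% of all probe sets. The shares over all genes were 6.86% in gs1;2 and 14.1% in NC2373. The vacuolar calcium exchanger CAX1a fell by 0.73 on the log2 scale (adjusted p = 0.0374), while the glutamate receptor-like channel GLR3.1 rose by 0.47 (adjusted p = 0.0110) and the channel OsTPC1 by 0.45 (adjusted p = 0.0162). Of 2 calcium or calmodulin binding proteins, CRO1, a calreticulin, rose in ND8037 by 0.45 (adjusted p = 0.0260) and CCAMK, a calcium and calmodulin dependent kinase of root symbiosis, was not called. The kinase targets with a probe set, AKT1, HKT1.5 and OsrbohB, gave 0 calls in each mutant by limma. At an unadjusted p under 0.05, 1 of these 3 was higher and 1 lower in NC2373, 1 was higher in ND8037, and 0 in gs1;2.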

How the data were processed

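RNA of 17 root samples was hybridised to 1 array each. The authors deposited log2 values made with RMA, per the submitters' processing notes. Which software ran RMA is not given in the sources used here. No detection calls, counts or depth come with the values, so the number of arrays limits precision. The values of 57258 probe sets, after leaving out 123 array controls, were fitted as deposited with limma 3.58.1 in R 4.3.3 (1 mean per group, all 17 samples, 11 residual degrees of freedom), two-sided, with Benjamini-Hochberg adjustment over all probe sets. Intervals are at 95%. Of the probe sets, 22436 named 1 gene, 95 several and 34727 none, and all 22436 matched RefSeq. Python 3.11.15 and matplotlib 3.10.9 made tables and figures. The test was tried on simulated data. Alternatives changed the samples in the fit, normalization, a filter at 5 on the log2 scale, the variance model, array weights, the probe set of a gene, shareable probe sets, and each array in turn. The members and lists were chosen with earlier results of these data known. Sample values are given for the 10 largest called members of each mutant, members called between lines or between null and wild type, and the member of highest mean in each family. CBL5 and second probe sets were added after their values were seen. Samples of a group are biological replicates per the labels.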

Additional observations from a re-analysis of the deposited data

Results flagged for a closer look

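The effect of gs1;1 on CML5 (locus LOC4352729) differed between the lines by 1.55 on the log2 scale, ND8037 effect minus NC2373 effect (SE 0.205, adjusted p = 0.0409 by limma). It stands here because the interaction term itself passed the threshold, with all mutant samples below their null in NC2373 and all above it in ND8037. The other CML5 probe set gave 0.23 (adjusted p = 0.4518). The call was lost without any 1 of 11 arrays (adjusted p = 0.0550 to 0.1246), and the line cannot be told apart from its array set.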

How the results depend on the processing

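A fit on the compared groups alone called 3 members in gs1;2, 8 in NC2373 and 1 between NC2373 null and wild type. Leaving out dim probe sets gave 10 in gs1;2, and array weights also gave 10. With the mean of all probe sets of a gene, and without shareable probe sets, the line difference called 0 members. The latter setting gave no value for CML5 and left 9 members called in ND8037. Leaving out 1 array at a time gave 1 to 16 members in gs1;2, 4 to 16 in NC2373, 5 to 15 in ND8037, 0 to 1 between lines and 1 to 9 between null and wild type. The NC2373 count was 4 without gs1;1 117 and 5 without 118, and the ND8037 count 5 without gs1;1 123, 8 without null 156, 9 without null 157 and 8 without null 158. Over all probe sets the counts were 2310 (555 to 2817), 4382 (1525 to 4883), 5200 (2075 to 5546), 5 (1 to 141) and 523 (118 to 1036) in the same order. With only the compared groups they were 615, 2189, 3213, 102 and 20, and without dim probe sets 2 for the line difference. With wild type as the control of NC2373 gs1;1, an alternative chosen after seeing the data, the sign turned in 18 of 77 members. Those called against either control were CIPK5 (0.11, adjusted p = 0.8758), CIPK12 (-0.48, adjusted p = 0.0380) and CML1 (0.79, adjusted p = 0.0232). Of the 37 calls over the 5 comparisons, 7 were kept under every alternative that gave a value and 30 were lost under at least 1. The cause of these changes was not tested, beyond the fewer samples or probe sets some settings use. No paired analysis was possible because the sample titles give each sample a number of its own.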
